A study of Mus musculus with 90 samples.

Results

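The genes described here are the collagens and matrix genes on an Illumina MouseRef-8 expression array. A probe belonged to the set when its annotated symbol was Col, a number, a and a number, or was one of Lum, Dcn, Bgn, Fmod, Ogn, Matn2, Matn4, Postn, Sparc, Eln, Fbn1, Fn1, Fbln1, Fbln2 and Fbln5. That gave 83 probes for 50 genes among 25697 probes and 16593 genes on the array. Fbn1 and Fn1 carried no probe under those symbols and were not analysed here.

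RNA was taken from kidney medulla, kidney cortex, spleen, liver and lung 24 h after Balb/c mice had received intravenous astatine-211, a radionuclide that decays by emitting alpha particles. The injected activity was 0, 0.064, 0.64, 1.8, 14 or 42 kBq, and each of the 30 combinations of tissue and activity had 3 arrays, 90 in all. The groups at 1.8, 14 and 42 kBq were each compared with the 0 kBq group of the same tissue. The labels give neither the age and sex of the animals nor what the 0 kBq mice received. They also do not say that the 3 arrays of a group came from separate animals, so p-values here measure the spread between these arrays.

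Collagens are triple-helical proteins that give tissue its framework. Fibrillar collagens such as types I and III bundle into fibres, type IV collagen forms the sheet of the basement membrane under epithelium and endothelium, and small leucine-rich proteoglycans such as lumican and decorin bind to fibrils and regulate their assembly. Sparc and the matrilins are further matrix proteins that bind collagen, and fibulins and elastin build elastic fibres. In kidney, the α3 and α4 chains of type IV collagen belong to the specialised basement membranes of glomeruli and tubules.

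Testing in a tissue required detection, at a detection p under 0.05, on at least 3 of that tissue's 18 arrays. By that filter 52 member probes of 36 genes were tested in lung, 32 of 25 genes in liver, 43 of 31 genes in spleen, 48 of 33 genes in kidney cortex and 45 of 34 genes in kidney medulla. In all, 64 probes of 41 genes were tested somewhere and 26 probes of 21 genes in every tissue. The 9 genes that were tested nowhere were Col10a1, Col19a1, Col4a6, Col5a3, Col6a6, Col9a3, Fbln5, Matn2 and Postn. A tested probe was not always well expressed, since 8 of the 43 tested probes in spleen and 5 of the 32 in liver were detected on none of the 3 control arrays.

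Arrays had 11229 to 14456 detected probes. The labels name no batch, but the 60 arrays at 0, 1.8, 14 and 42 kBq had median intensities of 86.1 to 152 and the 30 arrays at 0.064 and 0.64 kBq had 124 to 196. The spread between the 3 arrays of a group had a median SD over probes of 0.138 to 0.179 on the log2 scale in the former and 0.174 to 0.237 in the latter. The low activities were not compared with controls here, since activity and this split of the arrays cannot be told apart. Each tissue's own marker genes were bright on its arrays, with summed log2 levels of alveolar markers on lung arrays of 16.22 to 16.36, of hepatocyte markers on liver arrays of 15.92 to 16.23 and of B cell markers on spleen arrays of 12.84 to 13.32. Markers of other tissues were present too. Exocrine pancreas markers ran from 9.58 to 17.79 on spleen arrays, and cardiac muscle markers from 10.47 to 13.89 on lung arrays. Markers of the loop and collecting duct reached 15.45 to 15.71 in medulla and 14.40 to 15.10 in cortex. Proximal tubule markers ran from 15.64 to 15.96 in medulla and from 15.59 to 16.09 in cortex. Each tissue's arrays were normalised apart for these sums, so they cannot say how well the zones were separated. All samples were bulk tissue, in which fewer cells of a type and less RNA per cell cannot be told apart.

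Before any activity was given, lung was the tissue with the highest level for 18 of the 31 genes that were detected on all 3 controls of their highest tissue. The levels are log2 intensities with all 90 arrays normalised together, and they compare 1 probe between tissues, not different genes. For Col1a2 and Col4a5, both counted for lung, the lung arrays overlapped those of the next tissue. The share of all genes on the array that were highest in lung is not given here, so the count is no trait of matrix genes. Biglycan (Bgn) was at 13.95 in lung, osteoglycin (Ogn) at 12.53, Fbln1 at 10.87 and elastin (Eln) at 8.60. Sparc ran from 13.14 in lung through 10.86 in spleen, 10.34 in medulla and 9.43 in cortex to 9.29 in liver, and the last 2 lay close together. Decorin (Dcn) had its highest level in liver, at 12.29, and its lowest in spleen, at 10.59.

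Lumican (Lum) was likewise highest in liver, at 8.32 ± 0.10 (SD, n = 3), followed by medulla at 7.45 ± 0.08, cortex at 6.31 ± 0.16 and lung at 5.75 ± 0.49, and in spleen it was detected on 1 of 3 controls. The cortex and lung levels did not differ beyond the spread of the lung arrays. Col18a1, a basement membrane collagen whose C-terminal fragment is endostatin, was at 12.94 in liver, 11.71 in cortex, 11.63 in medulla, 10.35 in lung and 8.64 in spleen. Col26a1 was detected in cortex at 7.05 and medulla at 6.40 and on no control array of the other tissues. Col4a3 was highest in medulla, at 9.38, and Col14a1 and Col5a1 in spleen, at 7.75 and 10.04.

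**Figure D1:**
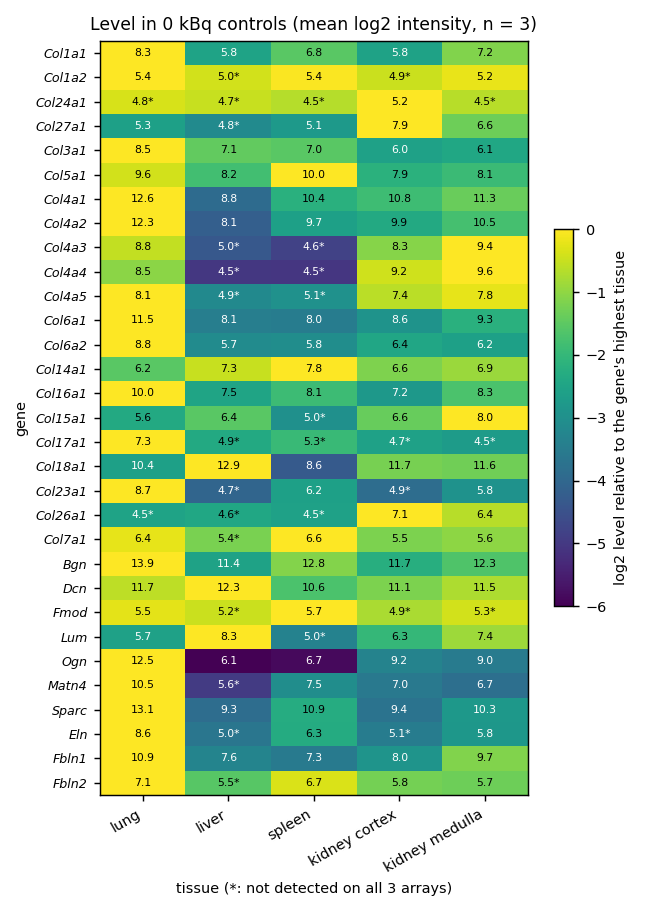
Level of 31 matrix genes (y axis) in the 0 kBq controls of the 5 tissues (x axis), as the mean log2 intensity of 3 arrays relative to the gene's highest tissue, for 1 probe each and with all 90 arrays normalised together. Lung holds the highest mean level of 18 of the 31 genes, with Col1a2 and Col4a5 overlapping the next tissue, while Lum, Dcn and Col18a1 peak in liver.

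Across the 15 comparisons with 0 kBq, 40 member probes passed limma's adjusted p of 0.05, counting a probe once for each activity. Of these, 23 were in kidney medulla, 8 in spleen, 6 in cortex and 3 in liver, and none was in lung. The 3 comparisons of a tissue share its 0 kBq arrays, so the values below stand side by side and are not independent of each other.

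**Figure D2:**
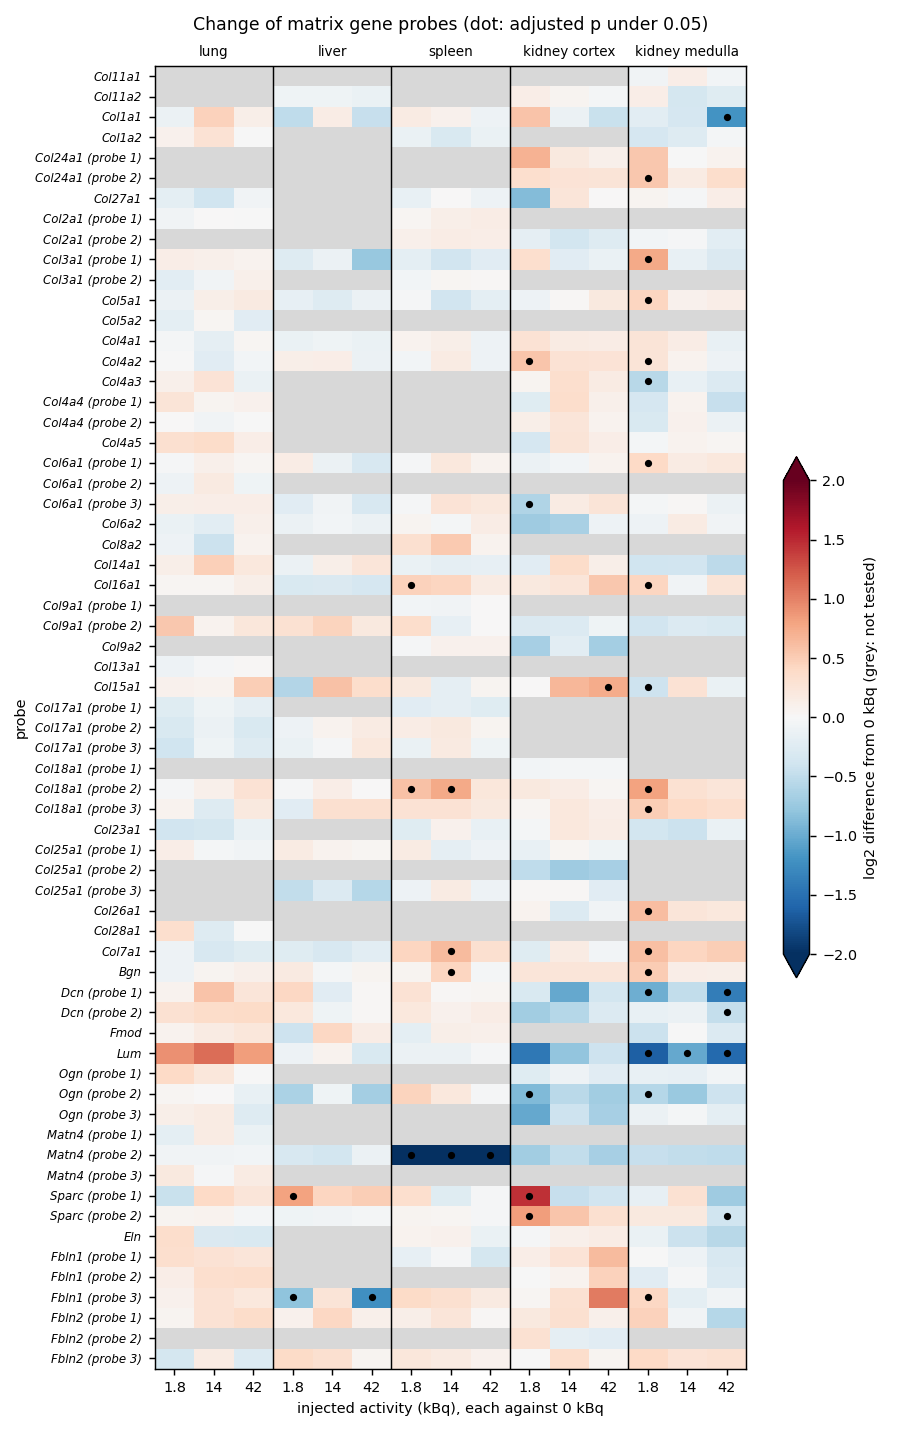
Log2 difference from 0 kBq of each of 64 member probes (rows) at 1.8, 14 and 42 kBq in the 5 tissues (columns), with dots on the probes that passed an adjusted p of 0.05 and blanks where a probe was not tested. The calls gather in the medulla column at 1.8 kBq, with 12 higher and 5 lower, and the lung columns hold none.

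In kidney medulla at 1.8 kBq, 12 member probes were higher and 5 lower than in controls, 37.8% of the 45 tested. Among all 15298 probes tested there, 13.4% were called higher and 13.3% lower, 26.6% in all. The median member difference was -0.05 on the log2 scale, against 0.01 over all probes. Lumican and decorin fell, while Col18a1, Col3a1, Col26a1, Col7a1 and biglycan rose.

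Lumican gave medulla log2 intensities of 7.55, 7.72 and 7.61 on the control arrays, 6.03, 5.92 and 6.01 at 1.8 kBq, 6.62, 6.60 and 6.59 at 14 kBq, with 6.0, 5.98 and 6.23 at 42 kBq. All 9 arrays at 1.8, 14 and 42 kBq lay below the 3 controls. The differences were -1.64 ± 0.16 (SE; 3.12-fold lower, adjusted p = 1.1e-07), -1.02 (2.03-fold, adjusted p = 0.0019) and -1.56 (2.94-fold, adjusted p = 5.1e-06), and each call held without any 1 array. The order of the groups did not follow activity, since the level at 14 kBq was 0.62 above that at 1.8 kBq (adjusted p = 0.0072).

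Decorin, a proteoglycan whose gene neighbours Lum on chromosome 10, had 2 probes of unequal brightness. The dimmer probe read 9.15, 9.38 and 9.07 in controls, 8.38, 8.15 and 8.15 at 1.8 kBq, 8.87, 8.65 and 8.59 at 14 kBq, with 7.84, 7.77 and 7.85 at 42 kBq. No array at these 3 activities reached the controls. It fell by 0.97 at 1.8 kBq (1.97-fold lower, adjusted p = 0.00036) and by 1.38 at 42 kBq (2.61-fold lower, adjusted p = 1e-04), and the difference of -0.50 at 14 kBq had an adjusted p of 0.27.

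The brighter decorin probe read 11.64, 11.71 and 11.60 in controls, 11.56, 11.42 and 11.54 at 1.8 kBq, 11.55, 11.49 and 11.55 at 14 kBq, with 11.08, 11.09 and 11.34 at 42 kBq. Its differences were -0.14 and -0.12 at 1.8 and 14 kBq (adjusted p = 0.46 and 0.8), and it fell by 0.48 at 42 kBq (adjusted p = 0.032). That last call was lost without any of 5 of its 6 arrays, with an adjusted p of up to 0.12. Both decorin probes therefore stood below controls at 42 kBq, but their sizes differed.

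Osteoglycin, another small leucine-rich proteoglycan, read 9.07, 9.08 and 9.39 in controls and 8.44, 8.47 and 8.93 at 1.8 kBq. It fell by 0.57 (1.48-fold lower, adjusted p = 0.019), and 3 of 6 arrays ended the call when left out. Biglycan moved the other way, from 12.30, 12.33 and 12.46 to 12.81, 12.85 and 12.96, a rise of 0.51 ± 0.10 (SE; adjusted p = 0.00049). It was lower again at 14 kBq by 0.37 and at 42 kBq by 0.39 than at 1.8 kBq (adjusted p = 0.0078 and 0.014). Of the 8 tested probes of these proteoglycans, 1 rose and 3 fell at 1.8 kBq, with a median of -0.29.

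**Figure D3:**
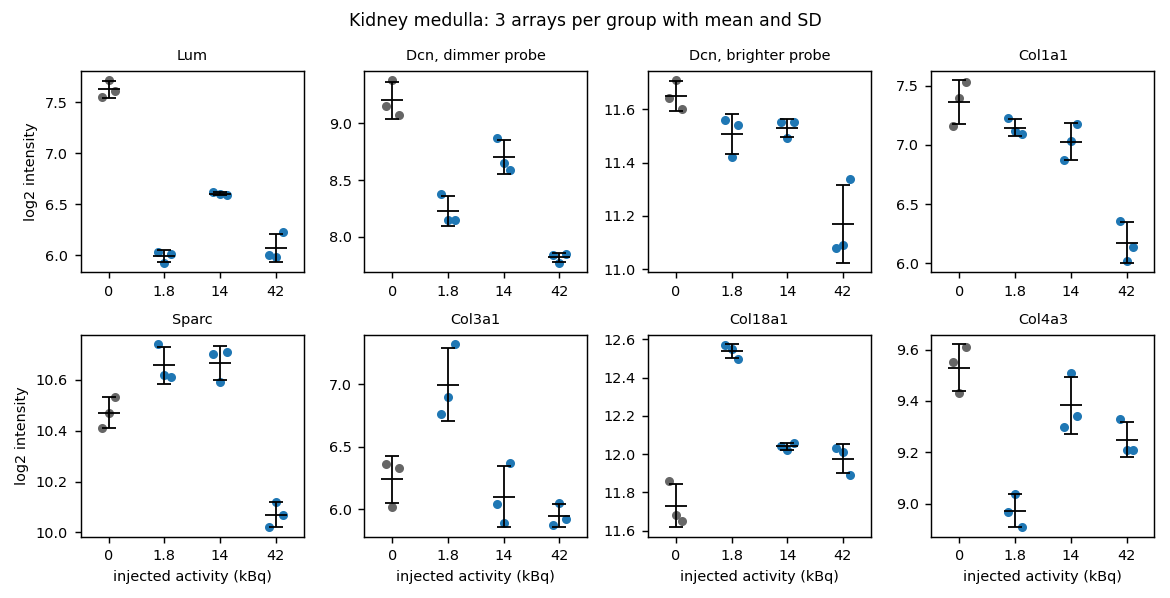
Log2 intensity of member genes on each kidney medulla array at 0, 1.8, 14 and 42 kBq, with points for single arrays and bars for the mean and SD of 3 arrays. Lum lies below its controls of 7.55 to 7.72 on all 9 arrays of the injected groups, whereas Col18a1 peaks at 1.8 kBq, at 12.50 to 12.57.

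Among fibrillar collagens, 3 of 10 tested probes rose in medulla at 1.8 kBq and none fell. Col3a1, the chain of type III collagen, read 6.36, 6.02 and 6.33 in controls, 6.76, 6.90 and 7.32 at 1.8 kBq, 6.04, 5.89 and 6.37 at 14 kBq, with 5.87, 6.05 and 5.92 at 42 kBq. Of these activities, only the 1.8 kBq arrays lay apart from the controls. It rose by 0.75 ± 0.18 (SE; 1.68-fold, adjusted p = 0.0035), and the level was then 0.89 lower at 14 kBq (adjusted p = 0.00099) and 1.05 lower at 42 kBq (adjusted p = 0.00055) than at 1.8 kBq.

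Col5a1, which nucleates fibrils with type I collagen, rose by 0.44 (adjusted p = 0.039). Col24a1 was called higher by 0.53 (adjusted p = 0.024) but was detected on 1 of 3 arrays at 1.8 kBq and on none of the controls. Col1a1, the main chain of type I collagen, read 7.16, 7.40 and 7.53 in controls, 7.23, 7.12 and 7.09 at 1.8 kBq, 6.87, 7.03 and 7.18 at 14 kBq, with 6.36, 6.02 and 6.14 at 42 kBq. The 42 kBq arrays lay below all others listed here. Col1a1 fell at 42 kBq by 1.19 ± 0.19 (SE; 2.28-fold lower, adjusted p = 0.0005), also against 1.8 kBq by 0.97 (adjusted p = 0.0013) and against 14 kBq by 0.85 (adjusted p = 0.014). Its partner chain Col1a2 was tested in lung, spleen and medulla, with differences from -0.33 to 0.29 and no call.

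Other collagens held the clearest rise. The brighter Col18a1 probe read 11.86, 11.68 and 11.65 in controls, 12.57, 12.55 and 12.50 at 1.8 kBq, 12.04, 12.02 and 12.06 at 14 kBq, with 12.03, 12.01 and 11.89 at 42 kBq. All arrays of the 3 activities exceeded the controls, and those at 1.8 kBq stood above the rest. The rise at 1.8 kBq was 0.81 ± 0.08 (SE; 1.75-fold, adjusted p = 1.6e-07), and the differences of 0.31 and 0.25 at 14 and 42 kBq were not called (adjusted p = 0.092 and 0.083). A second Col18a1 probe rose by 0.49 at 1.8 kBq (adjusted p = 0.015), a call that 3 of 6 arrays ended.

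Col26a1 went from 6.54, 6.78 and 6.41 to 7.25, 7.13 and 7.19, a rise of 0.61 (1.53-fold, adjusted p = 0.009). Col7a1, the chain of anchoring fibrils, went from 5.71, 5.74 and 5.83 to 6.53, 6.39 and 6.17, a rise of 0.60 (1.52-fold, adjusted p = 0.013) that was lost without the first 1.8 kBq array (adjusted p = 0.061). Neither gene's groups overlapped. Col15a1, a basement membrane zone collagen related to Col18a1, went the other way, from 8.0, 8.17 and 8.26 to 7.79, 7.78 and 7.64. It fell by 0.41 (adjusted p = 0.02), with 3 of 6 arrays ending the call, and was 0.70 higher at 14 kBq than at 1.8 kBq (adjusted p = 0.00037).

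Of the 6 basement membrane probes, 1 rose and 1 fell at 1.8 kBq. Col4a3 read 9.55, 9.43 and 9.61 in controls and 8.97, 9.04 and 8.91 at 1.8 kBq, with no overlap. It fell by 0.56 ± 0.10 (SE; 1.47-fold lower, adjusted p = 2e-04) and was 0.41 higher at 14 kBq than at 1.8 kBq (adjusted p = 0.0042). Its neighbour and partner chain Col4a4 had differences of -0.30 and -0.34 on its probes (adjusted p = 0.057 and 0.066). Col4a2, a chain of the common basement membrane network, went from 10.64, 10.68 and 10.60 to 10.92, 10.79 and 10.97, a rise of 0.26 (adjusted p = 0.04), while Col4a1 differed by 0.26 as well and was not called (adjusted p = 0.093).

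Col4a1 and Col4a2 lie head to head on mouse chromosome 8, and their transcription starts are 21 bases apart, so the promoter windows below, from RefSeq on GRCm38.p6 and running from 250 bases before to 50 bases after each start, share 78 bases. They are shown because these partner chains share 1 promoter region. Both genes stood 0.26 above controls in medulla at 1.8 kBq, with Col4a1 not called, and a link to the promoter was not tested. Capitals mark each CCAAT and each GGGCGG on either strand (ATTGG and CCGCCC as read here), and neither window held TATAAA. The Col4a1 window is chr8:11312777-11313076 on the minus strand, with 1 CCAAT and 1 GGGCGG, and the Col4a2 window is chr8:11312555-11312854 on the plus strand, with 1 CCAAT and 3 GGGCGG. The GGGCGG of Col4a1 and the last GGGCGG of Col4a2 are the same site, read from opposite strands in the shared bases.
Col4a1: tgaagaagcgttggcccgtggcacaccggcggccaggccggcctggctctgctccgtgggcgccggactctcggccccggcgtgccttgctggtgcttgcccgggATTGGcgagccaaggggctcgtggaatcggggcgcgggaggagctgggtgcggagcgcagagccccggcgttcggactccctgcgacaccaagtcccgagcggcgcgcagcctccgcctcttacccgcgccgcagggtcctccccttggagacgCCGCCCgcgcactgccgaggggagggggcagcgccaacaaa
Col4a2: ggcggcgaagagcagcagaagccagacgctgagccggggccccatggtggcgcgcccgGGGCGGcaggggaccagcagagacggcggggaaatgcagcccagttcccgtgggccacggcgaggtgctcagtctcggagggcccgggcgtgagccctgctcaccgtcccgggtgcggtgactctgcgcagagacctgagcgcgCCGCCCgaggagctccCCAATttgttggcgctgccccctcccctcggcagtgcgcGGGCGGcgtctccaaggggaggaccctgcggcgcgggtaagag
Over all 32851 promoter windows of that table, 37.4% held CCAAT, 35.7% GGGCGG and 13.6% TATAAA. Over the 46 windows of the 39 member genes that the table lists, the shares were 37%, 54.3% and 15.2%. A match of such short letters is a description of the window and not a binding site.

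The remaining medulla calls at 1.8 kBq were rises of Col16a1, a fibril-associated collagen, by 0.42 (adjusted p = 0.023), of the dimmer Col6a1 probe by 0.40 (adjusted p = 0.036) and of 1 Fbln1 probe. The brighter Col6a1 probe did not share that rise, with 9.32, 9.59 and 9.43 in controls and 9.36, 9.47 and 9.37 at 1.8 kBq. Fibulin 1, a calcium-binding matrix glycoprotein, read 9.81, 9.92 and 9.89 in controls and 10.26, 10.29 and 10.29 at 1.8 kBq, a rise of 0.41 (adjusted p = 0.0063). It was lower than at 1.8 kBq by 0.60 at 14 kBq (adjusted p = 0.00026) and by 0.48 at 42 kBq (adjusted p = 0.0051), and its other probes differed from controls by -0.23 and -0.01 at 1.8 kBq, neither called. Of the 17 calls at 1.8 kBq, 8 held without any 1 array, namely Lum, the dimmer Dcn probe, Col4a3, the brighter Col18a1 probe, Bgn, Col3a1, Col26a1 and Fbln1. The rises of Col16a1, Col24a1 and Col5a1 were each lost without any of 4 of 6 arrays, and those of Col4a2 and Col6a1 without any of 5, with adjusted p of up to 0.19. Scaling to the 75th percentile also ended the calls of Col16a1, Col4a2 and Col5a1, and testing without the detection filter those of Col4a2, Col5a1 and Col6a1.

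At 14 kBq lumican was the single member called in medulla, where 0.216% of all probes were higher and 0.222% lower, 0.438% in all. At 42 kBq, 5 member probes fell and none rose, 11.1% of those tested, beside 2.99% lower and 2.06% higher over all probes, 5.05% in all. These were Lum, both Dcn probes, Col1a1 and the brighter Sparc probe, and the member median was -0.13 against 0.01 over all probes.

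Sparc, a collagen-binding matricellular protein, read 10.41, 10.47 and 10.53 on its brighter probe in medulla controls, 10.74, 10.62 and 10.61 at 1.8 kBq, 10.70, 10.59 and 10.71 at 14 kBq, with 10.02, 10.12 and 10.07 at 42 kBq. The 42 kBq arrays lay below the controls and those at 1.8 and 14 kBq above them. It fell by 0.40 at 42 kBq (adjusted p = 0.015), which was lost without any of 4 of 6 arrays (adjusted p up to 0.067), and was 0.59 lower than at 14 kBq (adjusted p = 0.0016). The dimmer probe differed by -0.71 from controls (adjusted p = 0.053) and fell by 1.02 from 14 to 42 kBq (adjusted p = 0.012).

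Between activities in medulla, 22.5% of all probes differed from 1.8 to 14 kBq, 8.62% from 1.8 to 42 kBq and 2.51% from 14 to 42 kBq. Beside the genes above, Col4a2, Col4a1 and the fibulin Fbln2 were lower at 42 than at 1.8 kBq, by 0.36 (adjusted p = 0.015), 0.40 (adjusted p = 0.025) and 1.03 (adjusted p = 0.0034). Fbln2 was detected on 2 of 3 arrays at 42 kBq.

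The other matrix lists are read against the 26.6% of all probes called in medulla at 1.8 kBq. Of 16 tested collagen processing genes 5 rose, among them Bmp1, the procollagen C-proteinase, by 0.93 (adjusted p = 2.8e-05) and the crosslinking enzyme Loxl1 by 0.72 (adjusted p = 0.00092), and 3 fell, with Crtap, part of the prolyl 3-hydroxylation complex, lower by 0.53 (adjusted p = 0.0011). Of 11 tested proteases and inhibitors 6 rose and none fell. Macrophage elastase Mmp12, which was not detected in controls, was at least 4.0-fold higher (adjusted p = 1e-07) and the inhibitor Timp1 was 3.19-fold higher (adjusted p = 1.8e-05).

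Against the same 26.6%, of 10 tested TGF-beta genes 3 rose, including the matrix protein Tgfbi by 0.97 (adjusted p = 6.4e-05), and of 11 basement membrane partners 3 rose and the laminin chain Lama2 fell by 0.63. The collagen receptor Itga1 fell by 0.84 and Ddr1 rose, of 5 receptors tested. At 14 kBq no gene of these 5 lists was called, and at 42 kBq 3 fell, Lox, Lama2 and Itga1, and 1 rose, the TGF-beta target Ccn2 (by 0.38, adjusted p = 0.036), beside 5.05% of all probes. Lox was detected on 2 of 3 arrays at 42 kBq.

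Markers of other cells also differed between the medulla groups. At 1.8 kBq all 3 tested mesothelium markers were higher, and their summed log2 level was 9.41 to 9.57 against 8.81 to 8.89 in controls, with Msln and Lrrn4 undetected in both. Of 4 tested fat cell markers 2 were higher, with a summed level of 8.92 to 9.15 against 7.53 to 7.68, and Plin1, Retn, Fabp4 and Ucp1 were undetected. Proximal tubule markers were lower for 3 of 6 genes, at 15.64 to 15.68 against 15.90 to 15.95. Fibroblast markers, 1 of 6 higher, summed to 10.81 to 11.01 in controls, 10.93 to 11.18 at 1.8 kBq, 10.58 to 10.68 at 14 kBq and 10.63 to 10.69 at 42 kBq. The part of these markers in the results was not tested.

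In spleen at 1.8 kBq, 2 member probes rose and 1 fell, 6.98% of the 43 tested. Among all probes there, 1.44% rose and 1.37% fell, 2.8% in all. At 14 kBq 3 members rose and 1 fell, 9.30% of those tested, beside 1.89% higher and 1.4% lower over all probes, 3.3% in all. At 42 kBq no member rose and 1 fell, beside 0.451% higher and 0.0784% lower over all probes, 0.529% in all. Member medians were 0.06, 0.09 and 0.00, against -0.03, 0.00 and -0.02 over all probes. Matn4 was the member that fell at all 3 activities.

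Matn4 encodes matrilin 4, an adaptor protein of filamentous matrix networks. The RefSeq promoter window at chr2:164405111-164405410 on the minus strand of GRCm38.p6, the first of 2 listed for the gene, is shown because Matn4 had the largest fold change of any member. It held 1 CCAAT, in capitals on the other strand, no GGGCGG and no TATAAA.
Matn4: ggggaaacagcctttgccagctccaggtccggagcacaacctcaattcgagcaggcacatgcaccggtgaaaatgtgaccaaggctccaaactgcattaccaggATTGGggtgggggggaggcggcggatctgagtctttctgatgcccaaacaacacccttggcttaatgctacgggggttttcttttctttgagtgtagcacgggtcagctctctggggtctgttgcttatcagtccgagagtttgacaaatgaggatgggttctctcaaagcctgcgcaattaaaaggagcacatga

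On the brighter Matn4 probe the spleen controls read 7.32, 7.55 and 7.42. The arrays read 5.51, 5.01 and 5.15 at 1.8 kBq, 5.45, 5.48 and 5.09 at 14 kBq, with 5.05, 4.95 and 5.35 at 42 kBq. The controls stood apart from all 9 other arrays, and the activities overlapped each other. Matn4 was 4.62-, 4.26- and 4.98-fold lower (adjusted p = 0.00012, 0.00049 and 0.00011), and no array ended these calls when left out. The probe was detected on 2, 3 and 2 of 3 arrays, so the levels after injection lay near the detection limit. At the low activities it read 5.86, 4.58 and 4.64 (0.064 kBq) and 4.71, 4.72 and 5.98 (0.64 kBq), which were not compared.

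Col18a1 went from 8.56, 8.64 and 8.51 in spleen controls to 9.18, 8.87 and 9.41 at 1.8 kBq, 9.39, 9.28 and 9.28 at 14 kBq, with 8.93, 8.82 and 8.64 at 42 kBq. At 1.8 and 14 kBq no array overlapped the controls. It rose by 0.58 (1.5-fold, adjusted p = 0.022) and 0.75 (1.68-fold, adjusted p = 0.0046), and the difference at 42 kBq was 0.23 (adjusted p = 0.74). No spleen member differed between activities, beside 2.25% of all probes from 1.8 to 14 kBq, 0.712% from 1.8 to 42 kBq and 0.712% from 14 to 42 kBq. The first Col18a1 call was lost without any of 5 of 6 arrays (adjusted p up to 0.14), and the second held throughout.

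The other spleen rises were weaker. Col16a1 went from 7.81, 8.27 and 8.15 to 8.53, 8.52 and 8.58 at 1.8 kBq (0.47, adjusted p = 0.043), Bgn from 12.45, 12.29 and 12.68 to 12.81, 12.90 and 13.02 at 14 kBq (0.44, adjusted p = 0.036) and Col7a1 from 6.51, 6.77 and 6.57 to 7.29, 7.27 and 7.17 at 14 kBq (0.63, adjusted p = 0.047). Each was lost without 5 or 6 of the 6 arrays, with adjusted p of up to 0.22, 0.19 and 0.14. All 3 calls were also lost without the detection filter, and those of Col16a1 and Col7a1 on the deposited processed values. From the other lists, the collagen-degrading proteases Ctsk (by 1.41, adjusted p = 0.00011) and Mmp2 (by 0.61) rose at 1.8 kBq.

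All 12 tested exocrine pancreas markers were higher in spleen at each activity. Their summed log2 level was 9.58 to 9.77 in controls, where 9 of 12 were undetected, 17.72 to 17.79 at 1.8 kBq, 13.85 to 13.96 at 14 kBq and 16.67 to 16.76 at 42 kBq. The part of that pancreas signal in the member results was not tested.

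In kidney cortex at 1.8 kBq, 3 member probes rose and 2 fell, 10.4% of the 48 tested, beside 1.5% higher and 0.498% lower over all probes, 2% in all. With the replicate number as a block, 3 rose and 3 fell there, beside 2.64% of all probes. No member was called at 14 kBq, where 0.0929% of all probes were higher and 0.0266% lower, 0.119% in all. At 42 kBq 1 member rose and none fell, beside 1.36% and 0.339% of all probes, 1.7% in all. Member medians were -0.02, 0.09 and 0.05, against -0.01, 0.00 and -0.02. Every one of the 6 calls made without the block was lost when at least 1 array was left out.

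Both Sparc probes rose in cortex at 1.8 kBq. The brighter read 9.62, 9.71 and 9.32 in controls, 10.45, 10.31 and 10.37 at 1.8 kBq, 10.02, 10.13 and 10.14 at 14 kBq, with 9.94, 9.81 and 9.83 at 42 kBq. It rose by 0.83 ± 0.16 (SE; 1.78-fold, adjusted p = 0.0087), lost without the third control array or the first 1.8 kBq array (adjusted p up to 0.071). The dimmer read 6.94, 7.32 and 7.12 in controls, 8.66, 8.55 and 8.54 at 1.8 kBq, 6.5, 6.68 and 6.83 at 14 kBq, with 6.62, 7.05 and 6.56 at 42 kBq.

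On that dimmer probe only the 1.8 kBq arrays stood above the controls. Its rise was 1.46 ± 0.32 (SE; 2.75-fold, adjusted p = 0.021), which each of 6 arrays ended when left out (adjusted p up to 0.099). Against 1.8 kBq it fell by 1.92 at 14 kBq (adjusted p = 0.0022) and by 1.84 at 42 kBq (adjusted p = 0.0021), comparisons in which 3.38% and 4.23% of all probes were called. Between 14 and 42 kBq no cortex member differed, beside 0.451% of all probes.

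Col4a2 went from 10.11, 9.97 and 10.11 to 10.66, 10.70 and 10.48 in cortex at 1.8 kBq, a rise of 0.55 (adjusted p = 0.015; lost without 4 of 6 arrays, up to 0.086). On its brighter probe Col6a1, a chain of beaded filaments, went from 8.61, 8.72 and 8.66 to 7.92, 8.22 and 8.04. It fell by 0.61 (1.52-fold lower, adjusted p = 0.031, lost without each of 6 arrays, up to 0.14). It was 0.77 and 0.86 higher at 14 and 42 kBq than at 1.8 kBq (adjusted p = 0.0055 and 0.0015). Osteoglycin went from 9.34, 9.38 and 9.21 to 8.15, 8.18 and 8.94 and fell by 0.89 (1.85-fold lower, adjusted p = 0.033; lost without 5 of 6 arrays, up to 0.17). None of these groups overlapped its controls. The dimmer Col6a1 probe, which rose in medulla, did not share the cortex fall, with 7.26, 7.84 and 7.53 in controls and 7.42, 7.3 and 7.54 at 1.8 kBq. Col27a1, a fibrillar collagen, differed by -0.86 at 1.8 kBq, with an adjusted p of 0.082, and of 0.047 with the replicate number as a block.

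At 42 kBq Col15a1 rose from 6.49, 6.65 and 6.65 to 7.44, 7.33 and 7.25 (0.74, 1.67-fold, adjusted p = 0.044), a call that each of 6 arrays ended (up to 0.19). It was also lost with the replicate number as a block (adjusted p = 0.053) and without the detection filter (adjusted p = 0.089). Fbln1 read 7.99, 8.21 and 7.97 in cortex controls and 9.17, 9.12 and 9.02 at 42 kBq, with no overlap. Its difference of 1.04 had an adjusted p of 0.068 and was not called, but against 1.8 kBq the rise of 1.00 was (adjusted p = 0.047).

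Lumican and decorin stood below controls in cortex too, without a call. Lumican read 6.36, 6.48 and 6.14 in controls, 4.57, 5.15 and 4.97 at 1.8 kBq, 5.62, 5.64 and 5.36 at 14 kBq, with 5.96, 5.68 and 6.11 at 42 kBq, with no overlap at any of these activities. It was detected on 1 of 3 arrays at 1.8 kBq, so the level there lay at the detection limit. The differences were -1.43, -0.79 and -0.41 (adjusted p = 0.093, 0.65 and 0.81). In a fit without the 0.064 and 0.64 kBq arrays, which spread more, the first 2 had adjusted p of 0.000135 and 0.0319.

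The brighter decorin probe read 11.19, 11.22 and 11.42 in cortex controls, 10.54, 10.69 and 10.53 at 1.8 kBq and 10.69, 10.66 and 10.74 at 14 kBq. Its differences of -0.69 and -0.58 had adjusted p of 0.22 and 0.54, and 5.4e-05 and 0.000749 in the fit without the low activities. The dimmer decorin probe read 8.24, 8.47 and 8.25 in controls, 7.95, 7.94 and 8.15 at 1.8 kBq and 7.23, 7.27 and 7.40 at 14 kBq. Its difference of -1.02 at 14 kBq had an adjusted p of 0.34, and of 6.98e-05 in the fit without the low activities. That fit called 13, 5 and 4 member probes in cortex in place of 5, 0 and 1, and its share of all probes called was 8.35%, 2.6% and 5.25%.

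**Figure D4:**
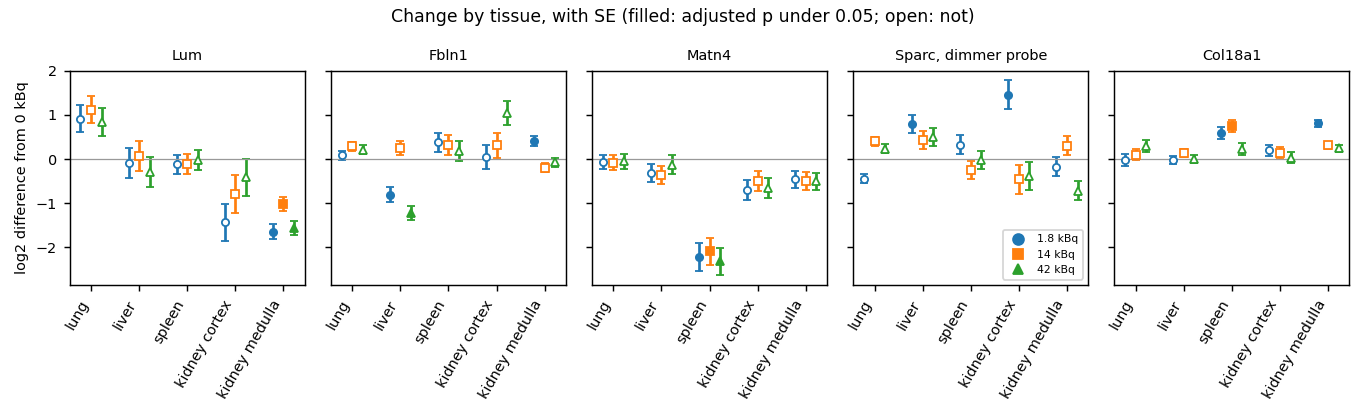
Log2 difference from 0 kBq (y axis) in the 5 tissues (x axis) for 1 member probe in each panel, with 1 marker per activity, bars of 1 SE from the limma fit and filled markers for an adjusted p under 0.05. Lum lies below 0 in both kidney zones and above 0 in lung, and Matn4 is near -2 in spleen at all 3 activities.

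In liver at 1.8 kBq 1 member rose and 1 fell, of 32 tested, beside 1.97% higher and 1.95% lower over all probes, 3.92% in all. None was called at 14 kBq, where 0.709% of all probes were higher and 0.592% lower, 1.3% in all. At 42 kBq no member rose and 1 fell, beside 1.76% and 1.78% of all probes, 3.53% in all. These shares lie near or under the background. Member medians were -0.11, -0.03 and -0.08, against -0.02, 0.00 and -0.01.

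Fbln1 read 7.05, 6.89 and 6.98 in liver controls, 6.27, 6.31 and 5.91 at 1.8 kBq, 7.26, 7.16 and 7.25 at 14 kBq, with 5.83, 5.64 and 5.77 at 42 kBq. The 1.8 and 42 kBq arrays lay below the controls and the 14 kBq arrays above them. It fell by 0.81 at 1.8 kBq (1.75-fold lower, adjusted p = 0.0081; 0.058 without the third 1.8 kBq array) and by 1.22 ± 0.17 (SE) at 42 kBq (2.33-fold lower, adjusted p = 0.00013). From 1.8 to 14 kBq it rose by 1.06 (adjusted p = 0.00067) and from 14 to 42 kBq it fell by 1.47 (adjusted p = 4.4e-05), where 5.9% and 0.453% of all probes differed.

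The dimmer Sparc probe went from 6.42, 6.23 and 6.03 in liver controls to 7.04, 7.04 and 6.99 at 1.8 kBq, a rise of 0.80 (1.74-fold, adjusted p = 0.029; lost without 5 of 6 arrays, up to 0.14). The brighter probe did not share it, with 8.82, 8.87 and 8.84 against 8.78, 8.73 and 8.74. Col15a1 read 5.54, 6.02 and 5.92 in controls, 4.96, 5.48 and 5.27 at 1.8 kBq, 6.25, 6.53 and 6.47 at 14 kBq, with 5.91, 6.38 and 6.23 at 42 kBq. It was detected on 2 of 3 arrays at 1.8 kBq. It was higher than at 1.8 kBq by 1.18 at 14 kBq (adjusted p = 0.00085) and by 0.94 at 42 kBq (adjusted p = 0.0057), where 4.46% of all probes differed from 1.8 kBq.

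Smooth muscle markers were called lower in liver for 2 of 5 genes at 1.8 and 42 kBq. Their summed log2 level was 9.72 to 9.83 in controls, 9.05 to 9.28 at 1.8 kBq, 9.97 to 10.05 at 14 kBq and 8.85 to 8.97 at 42 kBq. Their part in the Fbln1 result was not tested.

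In lung, the tissue with the most member probes tested, none of the 52 was called at any activity, beside 0.374%, 0.43% and 0.679% of all probes. At an unadjusted p under 0.05 there were 6, 11 and 8 members, beside 10.4%, 12.5% and 6.33% of all probes. The fit without the low activities called 4, 6 and 1 members, beside 3.65%, 5.35% and 2.16% of all probes. Member medians were 0.04, 0.07 and 0.06, against -0.02, -0.01 and -0.02. Lumican read 6.72, 5.66 and 5.96 in lung controls, 7.08, 6.79 and 7.23 at 1.8 kBq, 7.12, 7.21 and 7.37 at 14 kBq, with 6.61, 7.32 and 6.94 at 42 kBq.

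Lung lumican differed by 0.92, 1.12 and 0.84 (adjusted p = 0.28, 0.13 and 0.48), and its controls spread over more than 1 log2 unit. Without the first control array the 14 kBq difference passed, with an adjusted p of 0.046. In the fit without the low activities, lung lumican had adjusted p of 0.0233 and 0.00474 at 1.8 and 14 kBq. Decorin, not called in the main fit, was higher there at 14 kBq on its dimmer and brighter probes, by 0.57 and 0.38 (adjusted p = 0.00305 and 0.0111). The brighter probe was also higher in that fit at 1.8 and 42 kBq, by 0.31 and 0.39 (adjusted p = 0.0427 and 0.0114). Between activities, the dimmer Sparc probe read 10.24, 10.18 and 10.03 at 1.8 kBq, 11.16, 10.99 and 10.86 at 14 kBq, with 10.83, 10.83 and 10.85 at 42 kBq. It was 0.85 and 0.68 higher at 14 and 42 than at 1.8 kBq (adjusted p = 5.9e-05 and 0.00027), where 1.41% and 1.36% of all probes differed, and the controls, at 10.51, 10.63 and 10.67, lay in between. No member differed between 42 and 14 kBq in lung, beside 0.623% of all probes.

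Elastin, the core of elastic fibres, read 8.84, 8.95 and 9.0 in lung controls, 9.35, 9.20 and 9.29 at 1.8 kBq, 8.75, 8.69 and 8.48 at 14 kBq, with 8.75, 8.69 and 8.46 at 42 kBq. The controls lay between the 1.8 kBq arrays and those at 14 and 42 kBq. It was 0.65 lower at 14 and at 42 kBq than at 1.8 kBq (adjusted p = 0.016 and 0.013). Cardiac muscle markers on the lung arrays summed to 11.57 to 11.66 in controls, 10.47 to 10.53 at 1.8 kBq, 12.13 to 12.31 at 14 kBq and 13.81 to 13.89 at 42 kBq, and their part in these values was not tested.

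The difference between tissues was tested directly with all 90 arrays normalised together. That fit treated the arrays as independent, and any sharing of animals between tissues was not modelled in it. A response that differed among the 5 tissues was called for 13 of 64 member probes at 1.8 kBq, 5 at 14 kBq and 7 at 42 kBq, beside 17.4%, 3.61% and 4.67% of all probes. Of these 25 responses 7 were of probes that were not tested in at least 1 tissue, where their values lay near background. Fbln1 at 42 kBq had the smallest adjusted p, 1.08e-07, followed by Matn4 at 42 kBq with 2.17e-05 and Col18a1 at 1.8 kBq with 3.45e-05. Lum differed among tissues at 1.8, 14 and 42 kBq (adjusted p = 0.000127, 0.0166 and 0.00799).

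Between the kidney zones 3 member responses differed. The dimmer Sparc probe at 1.8 kBq changed by 1.42 in cortex and -0.17 in medulla, a difference of -1.59 (adjusted p = 8e-04). Col18a1 at 1.8 kBq changed by 0.84 in medulla and 0.20 in cortex, a difference of 0.64 (adjusted p = 0.00796), and Fbln1 at 42 kBq by -0.08 in medulla and 1.03 in cortex, a difference of -1.11 (adjusted p = 0.0195). At 1.8, 14 and 42 kBq 7.86%, 0.233% and 1.18% of all probes differed between the zones. The lumican response was not called different between medulla and cortex at any activity.

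**Figure D5:**
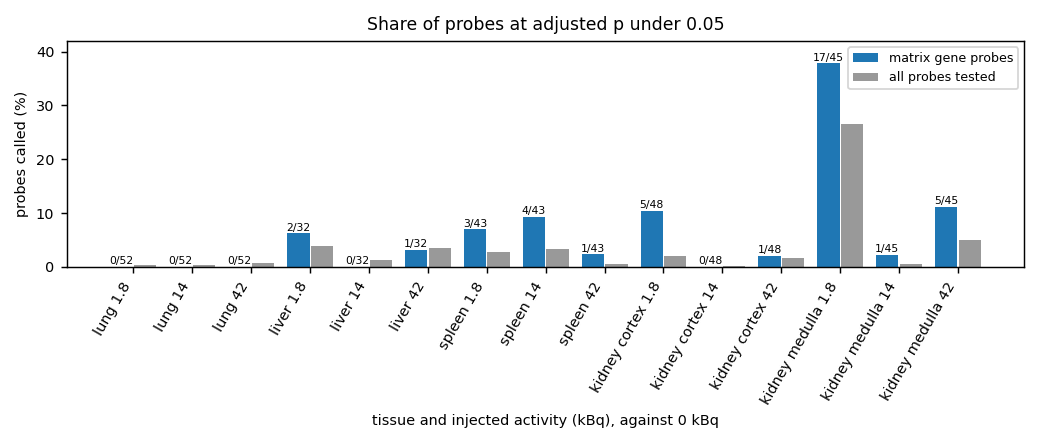
Percent of tested probes called against 0 kBq (y axis) among members and among all probes in each tissue and activity. At 1.8 kBq in medulla 37.8% of members were called beside 26.6% of all probes, and in lung no member was called.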

How the data were processed

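Total RNA from fresh-frozen tissue was labelled with biotin and hybridised to Illumina bead arrays, per the labels' protocols. The authors deposited 1 table of unnormalised intensity values with a detection p-value for each probe and array, per the file headers. A second deposited table of processed values, on an intensity scale, has a normalisation that is not given in the sources used here and served as an alternative only. Gene names came from the platform's annotation, in which 23978 of 25697 probes had 1 symbol, 0 had several and 1719 had none. Of these, 23962 matched a current Entrez entry.

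The background was corrected with limma's normexp method from detection p-values, with an offset of 16, followed by log2 and quantile normalisation within each tissue (limma 3.58.1 in R 4.3.3). Probes detected at p under 0.05 on at least 3 of 18 arrays entered a limma fit with 1 mean per activity and 12 residual degrees of freedom (eBayes with an intensity trend). P-values were two-sided and adjusted by Benjamini-Hochberg over all probes tested in the tissue, with calls at adjusted values under 0.05. The number of arrays, 3 per group, limits the precision. Tests between tissues used all 90 arrays normalised together. The fit was tested on simulated data.

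Any member could be named. Those called with the largest changes, up to 4 in each direction and comparison, and those called at several activities are given in full. Col1a1, Col1a2, Col3a1, Col4a1, Col4a2, Lum, Dcn, Sparc and Matn4 were to be named whatever their values. Where these were not called, their values are given only for some tissues and probes. For a gene with several probes the brightest is reported, with the others where they differ. The members, the other gene lists and the marker lists were chosen with earlier results of these data known. Alternatives were the fit without the 0.064 and 0.64 kBq arrays, no background correction, an offset of 50, scaling to the 75th percentile, no detection filter, detection on at least 9 arrays, the deposited processed table, the replicate number as a block, and leaving out each array. Over the arrays compared, 56 of 90 pairs of same-numbered arrays of a tissue had deviations from their group means that correlated above 0.1 (16 of 18 in cortex, 15 in spleen, 11 in medulla, 10 in liver and 4 in lung). Every pair did so in 3 of the 15 comparisons with 0 kBq, namely spleen at 14 and 42 kBq and cortex at 1.8 kBq, and there the numbers were taken to pair the arrays. The calls and p-values given for these 3 are nonetheless from the fit without pairing, unless the block is named. The fit with the replicate number as a block is an alternative. That pairing comes from the data, since no label says what a number marks.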

Additional observations from a re-analysis of the deposited data

Results flagged for a closer look

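Each result here was singled out because the response to an activity differed between tissues by a test of that difference, over the 5 tissues unless the kidney zones are named. Differences are on the log2 scale with all 90 arrays normalised together, and adjusted p-values are from limma. They are given as values, and no explanation was tested. Of the 25 responses over the 5 tissues, 7 came from probes that were dropped by the detection filter in at least 1 tissue, and 7 from probes detected on all arrays of both groups in every tissue, so several rest in part on values at background.

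Lumican at 1.8 kBq differed by 0.86 from controls in lung, -0.09 in liver, -0.12 in spleen, -1.40 in cortex and -1.61 in medulla (adjusted p = 0.000127). It was detected on 1 of 3 cortex arrays at 1.8 kBq and on no spleen array there. At 14 kBq it differed by 1.07 in lung and -1.02 in medulla (adjusted p = 0.0166), and at 42 kBq by 0.79 and -1.53 (adjusted p = 0.00799). The dimmer decorin probe at 42 kBq differed by 0.26 in lung and -1.40 in medulla (adjusted p = 0.0381). Osteoglycin at 1.8 kBq differed by 0.45 in spleen and -0.87 in cortex, and in liver, where it was detected on 1 of 3 arrays, by -0.94 (adjusted p = 0.0138). A second osteoglycin probe differed by -1.01 in cortex, where no array at 1.8 kBq detected it, and was not tested in liver and spleen (adjusted p = 0.0339).

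Fbln1 at 42 kBq differed by 1.03 in cortex, -1.22 in liver and -0.08 in medulla (adjusted p = 1.08e-07). A second probe was not tested in liver and spleen and was detected on none of the cortex controls, and it differed by 0.36 in lung and -0.26 in medulla (adjusted p = 0.00935). The first probe at 1.8 kBq differed by -0.79 in liver and 0.42 in medulla (adjusted p = 0.00389). Fbln1 at 42 kBq also differed between medulla and cortex, by -1.11.

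Matn4 differed among tissues at 1.8, 14 and 42 kBq (adjusted p = 0.000132, 0.00175 and 2.17e-05), with -2.21, -2.09 and -2.33 in spleen and no tissue beyond -0.66 otherwise. A second, dimmer Matn4 probe at 42 kBq (adjusted p = 0.0418) was tested in lung alone, where it differed by 0.17, so its difference among tissues compares values near background and gives no further evidence on Matn4.

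Col18a1 at 1.8 kBq differed by 0.84 in medulla, 0.62 in spleen and -0.02 in lung (adjusted p = 3.45e-05), and at 14 kBq by 0.80 in spleen and 0.12 in lung (adjusted p = 0.0178). Its response at 1.8 kBq was 0.64 larger in medulla than in cortex. The dimmer Sparc probe at 1.8 kBq differed by 1.42 in cortex, 0.78 in liver and -0.51 in lung (adjusted p = 6.45e-05), and medulla minus cortex was -1.59.

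Col7a1 at 1.8 kBq differed by 0.57 in medulla and -0.10 in lung (adjusted p = 0.02), and at 14 kBq by 0.63 in spleen and -0.31 in lung (adjusted p = 0.0191), and it was detected on 1 of 3 liver arrays in each group. At 1.8 kBq the tissue responses also differed for Col24a1 (0.68 in cortex, near background elsewhere, adjusted p = 0.000728) and Col16a1 (0.48 in spleen, -0.29 in liver, adjusted p = 0.0223). Col15a1 differed by -0.72 in liver and 0.21 in spleen, both partly detected, and by 0.07 in lung and -0.41 in medulla (adjusted p = 0.0163). Others were Col1a1 (0.55 in cortex, -0.22 in medulla, and undetected at 1.8 kBq in liver, adjusted p = 0.025) and Col26a1 (0.60 in medulla, 0.06 in cortex, not tested elsewhere, adjusted p = 0.0307). Col8a2 at 14 kBq (adjusted p = 0.048) and Col9a2 at 42 kBq (adjusted p = 0.00468) were each tested in 2 tissues and in none of them detected on all arrays of both groups, so these differences lie at background and no direction is given.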

How the results depend on the processing

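Of the 40 calls against 0 kBq, 17 held under every setting and without each array in turn, and no result reversed direction. The choice that mattered most was the inclusion of the 0.064 and 0.64 kBq arrays, which spread more. Without them members called were 11 in lung (from 0), 9 in liver (from 3), 22 in cortex (from 6), 10 in spleen (from 8) and 34 in medulla (from 23), 86 in all, with 40 of 40 calls shared and 46 added over 19 genes. The share of all probes called then ran from 1.65% to 31.5%. In that fit, differences between activities came to 80 (from 43), between the kidney zones to 19 (from 3) and among tissues to 54 (from 25). The cause was not tested beyond the larger spread. By comparison and without those arrays, cortex had 13, 5 and 4 calls at 1.8, 14 and 42 kBq, medulla 20, 4 and 10, lung 4, 6 and 1, liver 4, 1 and 4 and spleen 3, 6 and 1. Scaling to the 75th percentile gave 1 call in lung. Leaving out each array in turn gave totals of 0 to 2 in lung, 2 to 4 in liver, 4 to 7 in spleen, 0 to 5 in cortex and 15 to 25 in medulla. Under the replicate block the totals were 0 in lung, 3 in liver, 8 in spleen, 6 in cortex, 29 in medulla, 48 between activities, 3 between the kidney zones and 30 among tissues. In the 3 comparisons whose numbers pair the arrays, the block gave 4, 1 and 6 calls in place of 4, 1 and 5. Elsewhere it ended the cortex call at 42 kBq and gave 18, 2 and 9 calls in medulla in place of 17, 1 and 5. For single probes, alternatives kept the side of the threshold 1019 times, lost it 110 times and gained it 74 times. With scaling to the 75th percentile, the median difference over all probes ran from -0.062 (lung, 1.8 kBq) to 0.073 (liver, 1.8 kBq). In the main fit the median was -0.021 in both of these comparisons. A chip block was not run, since neither headers nor labels name chips. Probes near the detection limit, such as Matn4 in injected spleen, Lum in cortex at 1.8 kBq and Col24a1, set only a coarse bound on size.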
